A study of Mus musculus with 6 samples.

Results

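A set of 10 genes of the cellular defence against oxidants was described in stimulated mouse macrophages: Nfe2l2, which encodes the transcription factor NRF2, its cytosolic inhibitor Keap1, and Nqo1, Hmox1, Txn1, Txnrd1, Srxn1, Prdx1, Cat and Sod2. They were chosen by gene symbol with earlier results of these data known. Of the 10, 10 had a feature on the array, out of 25206 features in all. Macrophages labelled Tet2-deficient came from 3 Tet2-/- mice, and wild-type macrophages came from 3 littermates, both on the C57BL/6J background. Tet2 encodes an enzyme that oxidises methylcytosine in DNA. Peritoneal cells had been drawn out by 4% thioglycollate broth, harvested 4 days later, plated, and given lipopolysaccharide (10 ng/mL) with interferon gamma (2 ng/mL) for 10 h in both genotypes, so every level below belongs to the stimulated state. No source used here gives the age or sex of the mice or the deleted part of Tet2. Each culture gave 1 array, and levels are log2 expression values from RMA, a method that corrects background, brings arrays to a shared distribution and summarises probes. A log2 change is the Tet2-deficient mean minus the wild-type mean, ± the standard error from limma fitted to every feature (n = 3 arrays per group), and a gene was said to rise or fall only at an adjusted p under 0.05.

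NRF2 is held in the cytosol by KEAP1, which hands it to a ubiquitin ligase for destruction. Oxidants and electrophiles modify KEAP1, and NRF2 then enters the nucleus, pairs with small MAF proteins and binds antioxidant response elements beside genes such as Nqo1, Hmox1, Txnrd1 and Srxn1. Control is therefore largely on the protein, which an array does not measure. Peroxide is removed by catalase in peroxisomes and by peroxiredoxins, which thioredoxin reduces and thioredoxin reductase in turn keeps reduced. In macrophages this system faces the superoxide made by the phagocyte NADPH oxidase and, after lipopolysaccharide, a strong induction of the mitochondrial superoxide dismutase Sod2.

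Promoter sequences are shown for the members in which letters of the NRF2 or the related AP-1 site were found, and for Cat, the member that changed. They are the 250 bases before the transcript start, read 5′ to 3′ on the gene's strand, from RefSeq (GRCm38.p6), which matched 9 of the 10 members with 11 promoters. Hmox1 had no entry. The core of the antioxidant response element, TGACNNNGC, and the AP-1 site, TGAGTCA, were searched on both strands and are in capitals. In the Cat sequence alone the capitals mark CCAAT, or ATTGG on the other strand.
Nfe2l2 (chr2:75704664-75704913, minus strand): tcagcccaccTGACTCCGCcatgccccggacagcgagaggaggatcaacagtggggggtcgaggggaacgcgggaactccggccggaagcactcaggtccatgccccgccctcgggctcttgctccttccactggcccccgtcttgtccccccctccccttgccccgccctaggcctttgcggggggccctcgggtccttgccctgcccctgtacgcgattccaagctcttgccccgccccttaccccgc
Txnrd1 (chr10:82858956-82859205, plus strand): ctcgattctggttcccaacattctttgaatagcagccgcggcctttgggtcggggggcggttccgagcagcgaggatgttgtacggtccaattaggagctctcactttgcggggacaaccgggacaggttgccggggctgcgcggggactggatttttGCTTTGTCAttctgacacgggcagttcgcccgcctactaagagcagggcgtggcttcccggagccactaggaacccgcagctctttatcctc
Srxn1 (chr2:152105274-152105523, plus strand): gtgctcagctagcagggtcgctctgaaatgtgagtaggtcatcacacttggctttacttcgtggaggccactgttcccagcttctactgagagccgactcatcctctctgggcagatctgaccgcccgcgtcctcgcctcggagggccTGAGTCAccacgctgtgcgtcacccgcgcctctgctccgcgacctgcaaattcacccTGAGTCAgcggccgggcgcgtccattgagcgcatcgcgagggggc
Prdx1 (chr4:116685349-116685598, plus strand): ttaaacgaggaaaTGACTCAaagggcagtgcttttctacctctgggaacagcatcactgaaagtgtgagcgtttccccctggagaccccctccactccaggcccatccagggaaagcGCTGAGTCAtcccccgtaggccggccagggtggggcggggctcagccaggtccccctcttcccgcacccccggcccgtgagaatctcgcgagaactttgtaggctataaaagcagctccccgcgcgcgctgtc
Cat (chr2:103485154-103485403, minus strand): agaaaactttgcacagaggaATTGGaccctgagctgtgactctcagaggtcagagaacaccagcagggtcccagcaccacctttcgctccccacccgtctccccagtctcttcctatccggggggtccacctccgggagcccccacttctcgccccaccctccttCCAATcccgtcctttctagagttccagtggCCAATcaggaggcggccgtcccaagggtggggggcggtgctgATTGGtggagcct

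TGACNNNGC was found for 3 of the 9 matched members, beginning 240 bases before the start of Nfe2l2, 92 before that of Txnrd1 and 133 before that of Prdx1. Counted by window, 3 of the 11 member promoters held it, beside 10.2% of all 32851 promoter windows of this length. TGAGTCA was found for Srxn1, beginning 102 and 45 bases before the start, and for Prdx1, at 237 and 131 bases. By window, 2 of the 11 member promoters held it, against 4.46% of all windows. The Srxn1 match at 45 bases is followed by gc, so the string there differs from TGACNNNGC only by G in place of C. In Prdx1 the match at 131 bases overlaps the TGACNNNGC match at 133. Of the other Txnrd1 starts in the table, neither had a match, and for 5 members (Keap1, Nqo1, Txn1, Cat and Sod2) neither motif's letters stood in the window. CCAAT was found for 3 of the 9 matched members. Cat held 4 matches, and Sod2 (12 bases before the start) and Txnrd1 (163 bases) held 1 each. Of all windows 33.8% held at least 1 and 2.79% held 3 or more. A match is a string of letters, and binding was not measured.

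The Tet2 feature did not separate the genotypes, with log2 levels of 5.55, 5.25 and 5.75 in the Tet2-deficient arrays, against 5.40, 5.07 and 5.10 in the wild-type arrays (adjusted p = 0.365), so directions rest on the sample labels. Array medians were 3.47 to 3.60 in the Tet2-deficient group and 3.54 to 3.66 in the wild-type group. Of 9 general macrophage markers 8 lay above the array median in all 6 arrays, and the exception was Cd163. Itgam and Cd14 rose among the 9 and 0 fell, with 5 positive and 4 negative changes and a median of 0.0017. Mrc1 had the most negative change, -0.70 (adjusted p = 0.0701). Markers of resident peritoneal macrophages moved with genotype. Of these 10, 4 rose (Timd4, F5, Prg4 and Cd5l), 0 fell, and 10 had a positive change, 8 of them at an unadjusted p under 0.05, beside 16% of all features. Their mean log2 level was 6.91 to 7.32 in Tet2-deficient arrays, against 5.99 to 6.39 in wild-type arrays. Of 6 monocyte markers Fn1 rose (log2 change 1.78), 4 changes were positive and 2 negative, and the median was 0.17. The mean of that list, to which Fn1 and Ly6c2 (1.01, adjusted p = 0.0558) added most, was 6.27 to 6.73 in Tet2-deficient arrays, against 5.83 to 6.10 in wild-type arrays. Each of these calls was lost in 2 to 5 of the 6 fits that left out 1 array. The part of these shifts in the results below was not tested, and in bulk RNA fewer cells of a type and less RNA per cell cannot be told apart. Erythroid markers, which matter for Cat and for peroxiredoxins because red cells are rich in both, had a mean log2 level of 2.59 to 2.89 in Tet2-deficient arrays and 2.93 to 3.07 in wild-type arrays, under every array's median. The neutrophil list averaged 3.32 to 3.37 in Tet2-deficient arrays and 3.27 to 3.37 in wild-type arrays, and the mesothelium and fibroblast list 4.17 to 5.06 in Tet2-deficient arrays and 4.07 to 4.54 in wild-type arrays. In the mesothelium and fibroblast list 0 of 10 genes passed, with 7 positive and 3 negative changes. Dcn had the largest of them, 1.26 (adjusted p = 0.0715), and its groups did not overlap.

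One of the 10 genes passed the threshold. Cat, which encodes catalase, rose to 1.89 times the wild-type level, 0 members fell and 9 did not pass. The background was 0.952% of all features past the same threshold (0.647% higher, 0.305% lower). Changes of the other 9 had absolute log2 values up to 0.56 and went both ways: 6 of the 10 changes were positive and 4 negative. Over all features with a symbol 9805 changes were positive and 13380 negative. The median over the members was 0.11, beside -0.04 over all features. In 7 of the 10 the 3 arrays of one genotype lay wholly apart from the 3 of the other, 4 higher and 3 lower in the Tet2-deficient group. Such separation was seen for 22% of all features (9.74% higher and 12.2% lower). An unadjusted p under 0.05 was found for 6 of the 10, beside 16% of all features. Because the members were chosen with earlier results known, these counts are a description.

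**Figure D1:**
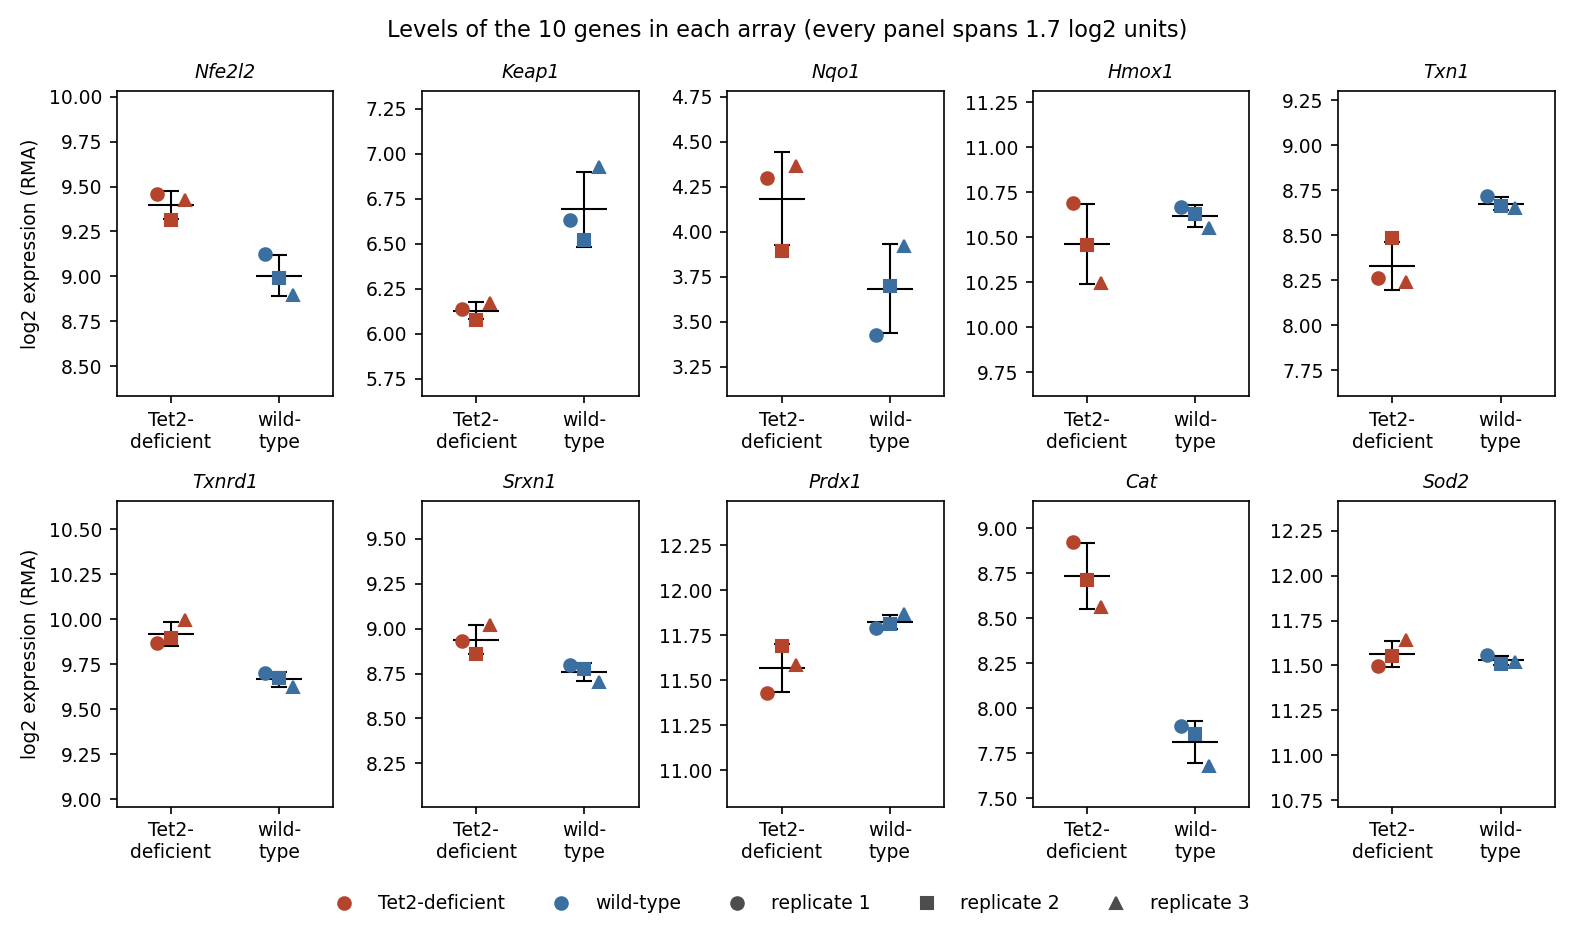
Log2 expression (y axis) of the 10 genes in each array, with 1 panel per gene; the 3 Tet2-deficient arrays are on the left and the 3 wild-type arrays on the right, marker shape gives the replicate number, and bars are the mean ± SD. Cat shows the widest gap, with the lowest Tet2-deficient array 0.66 above the highest wild-type array, and Nqo1, Hmox1 and Sod2 overlap.

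Nfe2l2 and Keap1, the factor and its inhibitor, lay on opposite sides of zero. Nfe2l2 had log2 levels of 9.46, 9.31 and 9.42 in Tet2-deficient replicates 1, 2 and 3, against 9.13, 8.99 and 8.90 in wild-type replicates 1, 2 and 3. Every Tet2-deficient array was above every wild-type array, by a gap of 0.19. The log2 change was 0.39 ± 0.12, or 1.31-fold, with an adjusted p = 0.153, so it did not pass. Keap1 had levels of 6.14, 6.08 and 6.17 in the Tet2-deficient arrays, against 6.63, 6.52 and 6.93 in the wild-type arrays. Here all Tet2-deficient arrays were the lower ones, and they lay closer together (SD 0.0477) than the wild-type arrays (SD 0.208). The change was -0.56 ± 0.13, or 0.677 times the wild-type level, with an adjusted p = 0.0842. Among the 25206 features 2.55% had a smaller p than Keap1 and 5.81% a smaller p than Nfe2l2.

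Both lay past the threshold under some settings. Keap1 passed under 2 of 12 other settings, with dim features left out (adjusted p = 0.0374) and with a trended and robust prior (0.0385). Nfe2l2 passed with that prior alone (0.0433). With any 1 array left out, the adjusted p ran from 0.116 to 0.241 for Keap1 and from 0.164 to 0.367 for Nfe2l2. The sign of both was kept under all 12 settings.

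Nqo1 and Hmox1, widely used readouts of NRF2 activity, did not pass, and their changes had opposite signs. Nqo1 encodes a quinone reductase. Its levels were 4.30, 3.89 and 4.37 in the Tet2-deficient arrays, against 3.43, 3.70 and 3.92 in the wild-type arrays. Tet2-deficient replicate 2 lay just below wild-type replicate 3, so the groups overlapped. Array medians were 3.47, 3.60 and 3.51 in the Tet2-deficient arrays, against 3.54, 3.66 and 3.58 in the wild-type arrays. Tet2-deficient replicates 1 and 3 stood furthest above theirs. The Nqo1 change was 0.50 ± 0.17, or 1.42-fold, with an adjusted p = 0.196. Hmox1 encodes the inducible heme oxygenase, which frees iron and makes biliverdin and carbon monoxide. It stood at 10.69, 10.46 and 10.24 in the Tet2-deficient arrays, against 10.67, 10.63 and 10.55 in the wild-type arrays. The spread was wider in the Tet2-deficient group (SD 0.223) than in the wild-type group (SD 0.0602), with Tet2-deficient replicate 1 the highest and replicate 3 the lowest of all 6 arrays. The change was -0.15 ± 0.14 (adjusted p = 0.649), and its 95% confidence interval of -0.46 to 0.16 holds changes in either direction.

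In the thioredoxin pathway the carrier and its reductase differed in sign. Txn1, cytosolic thioredoxin, had levels of 8.26, 8.49 and 8.24 in the Tet2-deficient arrays, against 8.72, 8.66 and 8.65 in the wild-type arrays. Txnrd1, the cytosolic selenoenzyme that reduces it, had 9.87, 9.90 and 10.00 in the Tet2-deficient arrays, against 9.70, 9.68 and 9.62 in the wild-type arrays. Neither pair of groups overlapped, with Txn1 lower and Txnrd1 higher in each Tet2-deficient array. The changes were -0.35 ± 0.12 (adjusted p = 0.198) and 0.25 ± 0.11 (adjusted p = 0.309), and neither passed.

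Prdx1, an abundant peroxiredoxin that thioredoxin recharges, and Srxn1, the sulfiredoxin that repairs over-oxidised peroxiredoxins, showed the same arrangement at a smaller size. Prdx1 levels were 11.43, 11.69 and 11.59 in the Tet2-deficient arrays, against 11.79, 11.81 and 11.87 in the wild-type arrays. Srxn1 levels were 8.93, 8.86 and 9.02 in the Tet2-deficient arrays, against 8.80, 8.77 and 8.70 in the wild-type arrays. The groups were apart by 0.10 for Prdx1 and by 0.07 for Srxn1. Prdx1 had a change of -0.25 ± 0.12 (adjusted p = 0.343) and Srxn1 one of 0.18 ± 0.11 (adjusted p = 0.485). Of the 4 genes whose promoters hold a TGACNNNGC or TGAGTCA match, Nfe2l2, Txnrd1 and Srxn1 thus had positive changes and Prdx1 a negative one, and none passed.

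Cat had log2 levels of 8.93, 8.71 and 8.56 in Tet2-deficient replicates 1, 2 and 3, against 7.90, 7.86 and 7.68 in wild-type replicates 1, 2 and 3. The groups stood 0.66 apart, more than 3 times the within-group SDs of 0.184 and 0.117. The log2 change was 0.92 ± 0.14, with a 95% confidence interval of 0.62 to 1.22 and an adjusted p = 0.0219, and 0.298% of all features had a smaller p. The call was kept under all 6 settings that used all arrays (adjusted p = 0.00328 to 0.0286). It was lost without Tet2-deficient replicate 1, 2 or 3 (adjusted p = 0.0843, 0.0564 and 0.0695) and without wild-type replicate 2 or 3 (0.0582 and 0.100), and kept without wild-type replicate 1 (0.0411). Over those 6 fits the log2 change itself stayed between 0.82 and 1.01.

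Sod2, the manganese enzyme that turns mitochondrial superoxide into peroxide, was at nearly the same level in both genotypes. It had 11.49, 11.55 and 11.64 in the Tet2-deficient arrays, against 11.56, 11.51 and 11.52 in the wild-type arrays, and the groups overlapped. Its change of 0.03 ± 0.11 (adjusted p = 0.915) had a 95% confidence interval of -0.22 to 0.29, which excludes a change of the size seen for Cat. The sign turned without Tet2-deficient replicate 3 (-0.0043).

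**Figure D2:**
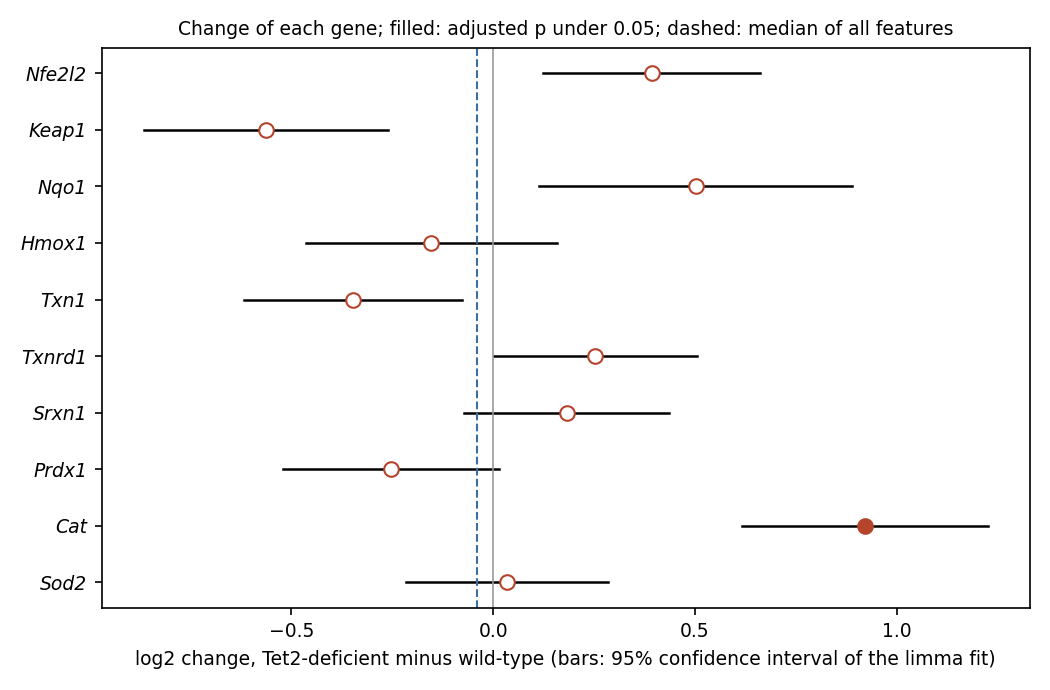
Log2 change, Tet2-deficient minus wild-type (x axis), of each of the 10 genes with its 95% confidence interval from the limma fit (3 arrays per group); filled points passed an adjusted p of 0.05 and the dashed line is the median of all features, -0.04. Cat at 0.92 is the one filled point, and the intervals of Hmox1, Srxn1, Prdx1 and Sod2 cross zero.

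Because a shift of a whole array cancels when 2 features of the same array are subtracted, 3 functional pairs were also followed within arrays. The pairs were chosen after their values were seen, so they are a description without a test. Relative to the wild-type mean, the log2 difference Nfe2l2 minus Keap1 was 1.01, 0.92 and 0.94 in the Tet2-deficient arrays, against 0.18, 0.15 and -0.34 in the wild-type arrays. For Txnrd1 minus Txn1 it was 0.61, 0.42 and 0.77 in the Tet2-deficient arrays, while wild-type arrays stayed within 0.0227 of their mean. Srxn1 minus Prdx1 gave 0.57, 0.23 and 0.50 in the Tet2-deficient arrays, against 0.07, 0.03 and -0.10 in the wild-type arrays. In each pair both genes had already separated the groups, in opposite directions, so their difference had to separate them too. The mean ratio was 1.94, 1.52 and 1.35 times that of the wild-type group.

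Among 19553 other named features (predicted genes and small RNAs left out), the profiles nearest to Cat over the 6 arrays were those of Glrx, which encodes a glutaredoxin, the tetraspanin Cd81 and the growth factor Vegfa. Likeness was the Euclidean distance between mean-centred log2 profiles, which was 0.148, 0.149 and 0.222. All 3 rose, by log2 changes of 0.83, 0.90 and 0.99, and each of these calls was lost in all 6 fits that left out 1 array. For Nfe2l2 the nearest were Pik3c2a, Dpp8 and Hif1an at distances of 0.0594, 0.0599 and 0.0611, with changes of 0.38, 0.43 and 0.38 that did not pass. All profiles share the same 6 arrays and the same contrast of genotypes. Choosing the nearest therefore picked genes with changes close to that of Cat or of Nfe2l2.

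The wider pathway was read from 6 gene lists, also written with earlier results of these data known. They hold 133 genes, of which 120 were measured and 13 not analysed here. Of the 120, 3 rose (Slc7a11, Glrx and Gsk3b), 3 fell (Msrb1, Selenow and Gpx1) and 114 did not pass. That is beside the background of 0.952%. An unadjusted p under 0.05 was found for 35 of them, beside 16% of all features. The groups did not overlap for 46, 21 higher and 25 lower, beside 22% of all features. With any 1 array left out the count of genes called was 0 to 2.

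Of 16 partners and regulators of NRF2, 1 rose, 0 fell and 15 did not pass, with a median log2 change of -0.03. The rise was that of Gsk3b, a kinase that marks NRF2 for degradation by a route that does not use KEAP1. Its levels were 8.06, 7.89 and 7.95 in the Tet2-deficient arrays, against 7.33, 7.25 and 7.34 in the wild-type arrays. The change was 0.66 ± 0.11, or 1.58-fold (adjusted p = 0.0361), and the groups lay well apart. Leaving out any 1 array lost the call (adjusted p = 0.0647 to 0.137). Crebbp, a histone acetyltransferase that acts as NRF2 co-activator, had 0.66 ± 0.15 (adjusted p = 0.0728). The small MAF partner Mafk had -0.50 ± 0.15 (0.153) and the nuclear receptor Rxra 0.36 ± 0.12 (0.176). Bach1, the repressor that competes for antioxidant response elements, had -0.10 ± 0.12 (0.729).

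Among 30 other NRF2 target genes 1 rose, 0 fell and 29 did not pass. Changes were split evenly, 15 positive and 15 negative, with a median of 0.01. The rise was that of Slc7a11, the cystine transporter subunit that feeds glutathione synthesis. It stood at 9.83, 9.84 and 9.83 in the Tet2-deficient arrays, against 8.42, 8.14 and 7.64 in wild-type ones. The Tet2-deficient arrays were nearly identical (SD 0.0067), and the wild-type arrays below them were spread out (SD 0.396). The change was 1.77 ± 0.18, or 3.40-fold (adjusted p = 0.00629). That call was lost without Tet2-deficient replicate 1 or 3 (adjusted p = 0.0514 and 0.0529). The export pump Abcc1 had 0.74 ± 0.14 (0.0506), its relative Abcc4 had 0.57 ± 0.15 (0.104), and Gclm, the modifier subunit of the enzyme that starts glutathione synthesis, had 0.42 ± 0.11 (0.108). In 15 of the 30 the groups did not overlap, 10 higher and 5 lower, beside 22% of all features (9.74% higher and 12.2% lower).

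Of 20 further genes of the thioredoxin, glutaredoxin and methionine sulfoxide reductase systems, 1 rose, 1 fell and 18 did not pass. Glrx, the cytosolic glutaredoxin, had 8.67, 8.40 and 8.18 in the Tet2-deficient arrays, against 7.64, 7.64 and 7.48 in the wild-type arrays (0.83 ± 0.15, adjusted p = 0.0377). Msrb1, a methionine sulfoxide reductase, had 8.32, 8.14 and 7.98 in the Tet2-deficient arrays, against 8.78, 9.08 and 8.97 in the wild-type arrays (-0.80 ± 0.14, adjusted p = 0.0361). Both were cleanly separated by genotype. Without 1 array the Glrx call was lost in all 6 fits (0.0728 to 0.157), and the Msrb1 call in 5, being kept without wild-type replicate 1 (0.0499). Negative changes were in the majority, 14 of 20, with a median of -0.13. They were also the majority over all features with a symbol, 13380 of 23185. Txnip, the inhibitor that binds thioredoxin, had -0.30 ± 0.12 (adjusted p = 0.261), and Prdx4, the peroxiredoxin of the endoplasmic reticulum, had -0.26 ± 0.11 (0.294).

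Other antioxidant genes had the lowest median of the 6 lists, -0.24 over 16 genes, of which 0 rose, 2 fell and 14 did not pass. Gpx1, the cytosolic glutathione peroxidase, fell by 0.62 ± 0.11 (adjusted p = 0.0379). Its levels were 9.005, 9.08 and 8.99 in the Tet2-deficient arrays, against 9.61, 9.69 and 9.64 in the wild-type arrays, a tight separation in both groups. Selenow, which encodes the small selenoprotein W, fell by 0.68 ± 0.12 (adjusted p = 0.0408), with 8.35, 8.25 and 8.05 in the Tet2-deficient arrays, against 8.94, 8.85 and 8.90 in the wild-type arrays. So 2 enzymes that remove hydrogen peroxide, catalase and glutathione peroxidase, had transcripts that moved in opposite directions. Both falls were lost whichever array was left out (0.0707 to 0.155 for Gpx1 and 0.0774 to 0.160 for Selenow) and after centring arrays on their medians (0.0622 and 0.0707). The paraoxonase Pon3 had 0.52 ± 0.12 (adjusted p = 0.0714) and the peroxidase Gpx7 -0.51 ± 0.14 (0.116).

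**Figure D3:**
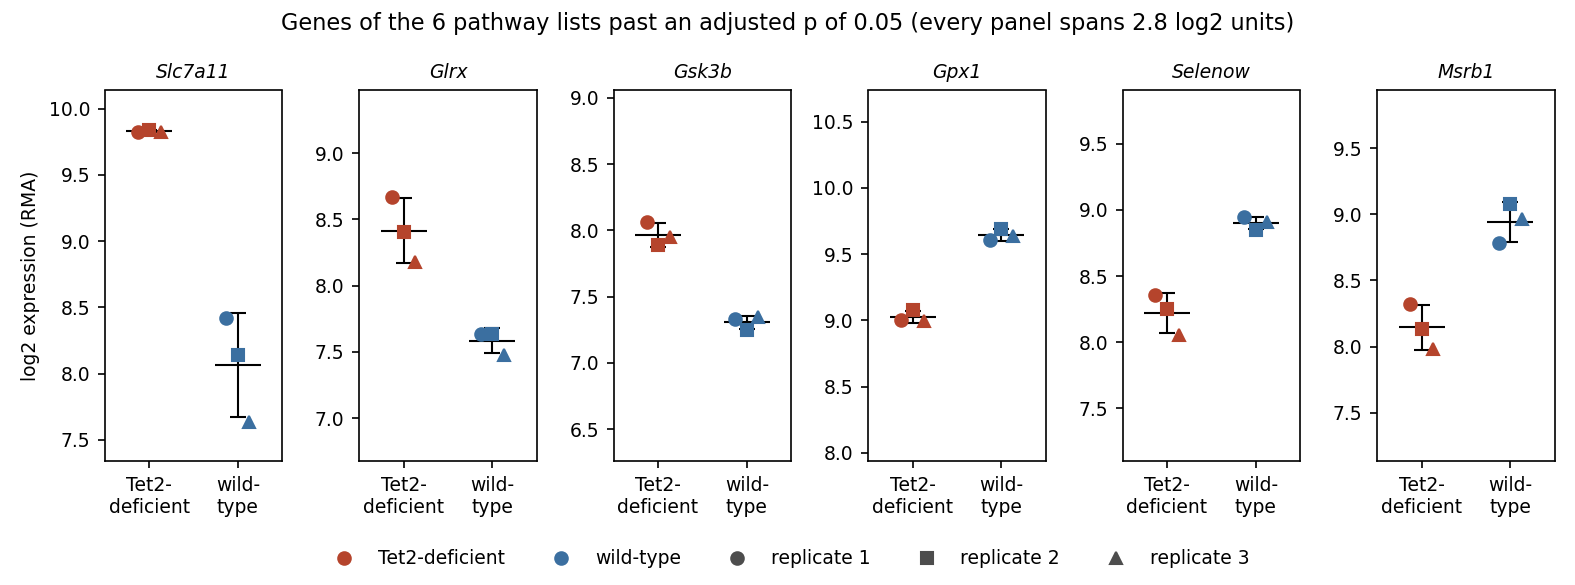
Log2 expression (y axis) of the 6 genes of the pathway lists that passed an adjusted p of 0.05; Tet2-deficient arrays are on the left and wild-type arrays on the right of each panel, marker shape gives the replicate number, and bars are the mean ± SD (n = 3 per group). Slc7a11, Glrx and Gsk3b are higher and Gpx1, Selenow and Msrb1 lower in every Tet2-deficient array.

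For enzymes that make superoxide or peroxide, 0 of 14 passed the limma threshold, beside 0.952% of all features. Among the 14, 3 had an unadjusted p under 0.05, beside 16% of all features, and the median change was -0.01. Cybb, the catalytic subunit of the phagocyte NADPH oxidase, had levels of 11.55, 11.60 and 11.58 in the Tet2-deficient arrays, against 11.31, 11.21 and 11.18 in the wild-type arrays (0.35 ± 0.11, adjusted p = 0.171). Its membrane partner Cyba had 10.21, 10.14 and 10.11 in the Tet2-deficient arrays, against 10.37, 10.44 and 10.39 in the wild-type arrays (-0.25 ± 0.11, adjusted p = 0.315). Both subunits separated by genotype, in opposite directions and short of the threshold. The dual oxidase Duox2 had -0.40 ± 0.13 (adjusted p = 0.163) at levels near or under the array medians, and xanthine dehydrogenase, Xdh, had -0.38 ± 0.14 (0.220).

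Catalase is a peroxisomal enzyme, and other genes of the peroxisome did not pass. Of 24 measured, 0 rose and 0 fell in limma's test, beside 0.952% of all features past the threshold. For 2 the unadjusted p was under 0.05, beside 16% of all features. Of the 24 changes 12 were positive and 12 negative, with a median of -0.02. The thiolase Acaa1a had -0.54 ± 0.16 (adjusted p = 0.146) and carnitine acetyltransferase, Crat, 0.41 ± 0.12 (0.149). Pxmp2, a peroxisomal membrane channel, had -0.34 ± 0.16 (0.332) and the racemase Amacr -0.26 ± 0.13 (0.381).

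**Figure D4:**
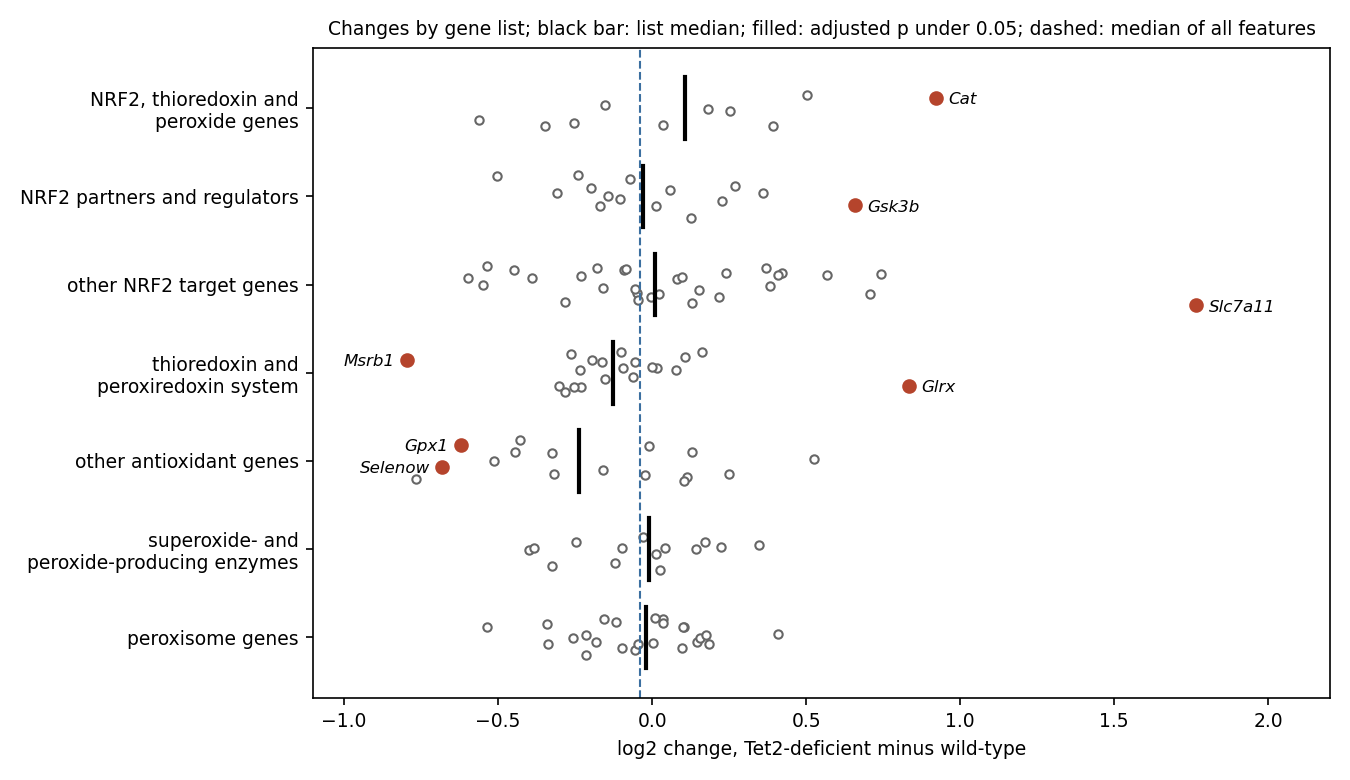
Log2 change, Tet2-deficient minus wild-type (x axis), of the 10 genes and of the 120 measured genes of the 6 pathway lists, 1 row per list; each point is a gene, filled points passed an adjusted p of 0.05, black bars are list medians and the dashed line is the median of all features. List medians run from -0.24 for other antioxidant genes to 0.11 for the 10 genes, and filled points stand on both sides of zero.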

How the data were processed

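Total RNA of 6 macrophage cultures (3 Tet2-deficient, 3 wild-type) was hybridised to 1 array each. The authors deposited log2 expression values made with RMA in affy 1.36.1, per the submitters' processing notes. No source used here gives the array's probe set definition, the genome build or any filter. Values ran from 0.345 to 12.7, and sorted values differed between arrays by at most 0.27, so they were not normalized again. RMA hides a change shared by all genes. No 2 arrays were the same: at least 99.65% of features differed in each pair. Arrays have no read depth, and their number limits the precision. A single gene symbol was available for 23185 of 25206 features and no symbol for 2021, and all named ones were matched through the Entrez number to the RefSeq table of GRCm38.p6.

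Genotypes were compared for every feature in limma 3.58.1 (lmFit, eBayes; R 4.3.3). Two-sided p-values were adjusted by Benjamini and Hochberg's method across the array, and 0.05 was the limit for a call. The moderated spread carried 5.31 prior degrees of freedom. The labels call the samples biological replicates, and the design gives 3 mice per group. With 3 arrays a side the smallest two-sided permutation p is 0.1, so no such test was run. The fit was tested on simulated data built on the arrays' own means and spread for 25206 features. There 64% of changes of 1 log2 unit and 93% of changes of 2 log2 units were called, and 2.48% of calls were unchanged genes.

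The members and lists were chosen with earlier results of these data known. Named were Tet2, the 10 members, in each pathway list the genes past the threshold with up to 4 of smallest p, the marker genes past it, and the 3 profiles nearest to Cat and Nfe2l2. Bach1, Cd163, Mrc1, Ly6c2, Dcn, the within-array pairs and the selenoprotein genes were chosen after their values were seen. Alternatives were arrays centred on medians, cyclic loess, dim features left out, a replicate block, a trended and robust prior, array weights, and each array left out in turn.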

Additional observations from a re-analysis of the deposited data

How the results depend on the processing

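The direction of the 10 members was kept under all 12 alternatives with 1 exception, Sod2, which turned to -0.0043 without Tet2-deficient replicate 3 and reached 0.0692 without Tet2-deficient replicate 1. Of the 10 members, 1 passed the threshold. The count was 2 with dim features left out (Cat and Keap1), 3 when the prior was trended and robust (Cat, Keap1 and Nfe2l2), and 0 to 1 with 1 array left out. Of the pathway genes 6 passed. The count was 12 with dim features left out, 13 when the prior was trended and robust, 2 with the replicate block, and 0 to 2 with 1 array left out. Over all features the count of 240 became 846 with dim features left out, 814 when the prior was trended and robust, 498 with array weights, and 11 to 155 with 1 array left out. Fewer arrays leave fewer degrees of freedom, and leaving out dim features leaves 12603 tests. Why the counts differ between settings was not tested for any of them. Higher features were 67.9% of calls as deposited, 78.8% after centring on medians and 59.6% with cyclic loess. Same-numbered arrays deviated together with correlations of 0.0838, 0.191 and 0.0248. Tet2-deficient replicates 1 and 2 correlated best with the wild-type array of their own number, and replicate 3 did not. The labels name no batch, and the numbers were not taken as pairs. Whether same-numbered arrays share a batch was not tested. With the replicate block, 230 features and 1 member passed. Under it Slc7a11 (adjusted p = 0.0131) and Glrx (0.040) kept their calls, and Gsk3b (0.0565), Selenow (0.0584), Msrb1 (0.0588) and Gpx1 (0.0604) did not. Among values of single named genes under the alternatives, 464 kept their direction and side of the threshold, 80 lost the threshold, 17 gained it and 1 reversed.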

Other observations

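The 3 genes that fell among the pathway lists, Gpx1, Msrb1 and Selenow, all encode selenoproteins, which carry selenocysteine in place of cysteine, as does Txnrd1. All 24 mouse selenoprotein and selenophosphate synthetase genes looked up after this was seen were on the array. Of these 24, 0 rose, 3 fell and 21 did not pass the limma threshold, and 8 had an unadjusted p under 0.05. Of all features 0.305% fell and 16% had an unadjusted p under 0.05, and the 3 that fell are the genes that prompted the list. The median log2 change was -0.03, beside -0.04 over all features, with 11 positive and 13 negative changes. Selenop, the secreted selenium carrier, had -0.32 ± 0.11 (adjusted p = 0.203) and Selenom, a protein of the endoplasmic reticulum, -0.57 ± 0.19 (0.183). On the other side stood Selenoi, an enzyme of phosphatidylethanolamine synthesis, with 0.53 ± 0.15 (0.116), and Selenok with 0.39 ± 0.14 (0.207). The list was put together after the values were seen, so these counts are a description.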
